A study of Mus musculus with 15 samples.

Results

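The set described here holds 9 mouse genes, most of them coding for proteins at the cell surface: Cd22, Cd300lg, Gcsam, Ccr2, Acvrl1, Cldn1, March1, Bst1 and Lgals3. They were picked by name, with no numeric limit, from the normalised expression table because their values were high in both non-leukemic groups that lack Tet2. They are 9 of the 44827 genes in that table and 9 of the 13927 that passed the filter on low values, and all 9 passed it. The values that chose them were those of the Tet2-/- and non-leukemic double-mutant libraries, so the height of those groups over WT is given below as a description, with no test. Among the 9 proteins, 2 are not surface proteins in the strict sense: Gcsam codes for an adaptor anchored at the inner face of the membrane, and Lgals3 for a soluble lectin.

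RNA was sequenced from bone marrow LSK cells (Lin- Sca1+ cKit+, the sorted fraction that holds stem cells and multipotent progenitors) of C57BL/6 mice carrying conditional alleles specific to hematopoietic tissue. Each of 5 groups had 3 libraries: WT, Tet2-/-, Nras(G12D), Tet2-/- Nras(G12D) without leukemia (called double mutant or non-leukemic double here), and leukemic Tet2-/- Nras(G12D) (leukemic double). The design text names 6 months of age for the animals of the methylome. The Cre driver is not given in the sources used here, nor what the letters BMT in the sample names of the leukemic group stand for. Whether libraries of one group are separate animals is not stated by the labels. The p-values rest on the spread among these libraries, and that spread may be technical.

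Total counts ran from 22733189 to 43562909 per library. Levels are given as CPM, the count recovered from the deposited log2 value per 1000000 of the scaled library size. Tet2 over the whole gene was at 50.7 to 65.2 CPM in WT and at 35.9 to 59.8 in Tet2-/-, so its total did not separate these groups, and since the labels do not say which exons are deleted it checks no label. Nras was at 167 to 179 CPM in WT and at 153 to 200 CPM in Nras(G12D). LSK markers (9 genes, Kit, Ly6a and Cd34 among them) summed to 2355 to 5927 CPM in the 12 non-leukemic libraries, but to 2812, 686 and 1246 in leukemic libraries 1 to 3. Erythroid markers summed to 649, 6553 and 3097 CPM in the same 3 leukemic libraries, against 157 to 696 in the rest. Leukemic libraries 2 and 3 thus stood apart from the LSK label, with LSK marker sums below those of every other library. Differences of the leukemic group from WT and from the non-leukemic double mutant are therefore also given with each library left out. Every such fit kept leukemic library 2 or 3, so none shows the group without both. The Y-linked genes Ddx3y, Eif2s3y, Kdm5d and Uty averaged 6.25 to 7.38 on the log2 CPM scale in Tet2-/- libraries 1 and 2, Nras(G12D) library 2, double-mutant library 1 and leukemic library 1. They averaged -5.97 to -1.92 in the other libraries, all 3 WT libraries included.

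TET2 is a dioxygenase that oxidises methylated cytosine, mostly at CG pairs, and NRAS with the G12D change stays in its active, signalling state. Loss of TET2 is common in myeloid neoplasms and in clonal hematopoiesis. The 9 proteins fall into several families. CD22 is an inhibitory Siglec, a receptor that binds sialic acid, on B cells. CCR2 is the chemokine receptor through which monocytes follow CCL2, and ACVRL1 (ALK1) is a type I receptor for BMP ligands, best known from endothelium. MARCH1 is a membrane ubiquitin ligase that takes MHC class II and CD86 off the surface of antigen-presenting cells, and BST1 (CD157) is an enzyme on the outer membrane that consumes NAD.

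On GRCm38 (GENCODE M21) all 9 are protein-coding genes spread over 8 chromosomes. They are Cd22 (chr7:30865402-30880342, minus strand), Cd300lg (chr11:102041509-102055620, plus), Gcsam (chr16:45610380-45622867, plus) and Ccr2 (chr9:124101950-124113557, plus). The others are Acvrl1 (chr15:101128522-101145336, plus), Cldn1 (chr16:26356642-26371841, minus), March1 (chr8:65617900-66471637, plus), Bst1 (chr5:43818885-43843986, plus) and Lgals3 (chr14:47367751-47386160, plus). None lies on chromosome 3, where Tet2 and Nras are. Bst1 overlaps Fbxl5, and no label or header says whether reads were counted by strand, so the overlap may mix reads of both.

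Since TET2 acts on methylated cytosine, the start regions of 4 members are shown with CG pairs in capitals. They were chosen for contrast: Cldn1 and Lgals3 had many CG pairs in the 250 bases before the RefSeq start (GRCm38.p6), 14 and 13, while Cd22 and Gcsam had 4 and 3. Each printed stretch is the part of that window outside every GENCODE exon, written 5′ to 3′ on the gene's strand. They are Cldn1 chr16:26371842-26372089 (minus strand), Lgals3 chr14:47373610-47373812 (plus), Cd22 chr7:30879029-30879176 (minus) and Gcsam chr16:45610190-45610379 (plus).
Cldn1: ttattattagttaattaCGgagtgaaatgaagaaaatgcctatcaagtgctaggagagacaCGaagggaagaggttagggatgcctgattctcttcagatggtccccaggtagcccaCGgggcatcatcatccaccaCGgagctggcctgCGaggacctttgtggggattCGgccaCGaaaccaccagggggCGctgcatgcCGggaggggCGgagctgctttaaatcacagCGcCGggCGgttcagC
Lgals3: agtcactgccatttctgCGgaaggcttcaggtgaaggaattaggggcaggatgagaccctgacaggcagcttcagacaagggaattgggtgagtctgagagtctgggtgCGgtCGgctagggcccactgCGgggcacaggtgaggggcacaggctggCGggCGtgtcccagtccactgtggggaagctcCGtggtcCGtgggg
Cd22: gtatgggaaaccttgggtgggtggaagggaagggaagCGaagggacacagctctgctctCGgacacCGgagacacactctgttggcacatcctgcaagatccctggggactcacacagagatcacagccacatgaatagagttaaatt
Gcsam: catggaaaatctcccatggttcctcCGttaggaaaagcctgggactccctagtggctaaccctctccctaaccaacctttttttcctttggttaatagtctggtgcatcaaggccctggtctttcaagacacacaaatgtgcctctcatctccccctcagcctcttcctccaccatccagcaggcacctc
The median of 32851 such windows held 6 CG pairs, with quartiles at 2 and 16. The window of Ccr2 held 1 pair, and the 3 windows of March1, named Marchf1 in RefSeq, held 3, 7 and 0. The members thus had no common CG content: of the 6 with a window in the table, Cldn1 and Lgals3 were above the median, and so was 1 of the windows of March1. Methylation was not measured in these libraries. On either strand, GAGGAA (the core bound by PU.1) was in windows of Gcsam and March1 and in 23.3% of all windows, and TTGCNNAA (C/EBP) and TGTGGT (RUNX) were in a window of March1 and in 9.56% and 14.0% of all. TGANTCA (AP-1) and the IRF motif were in none of the members' windows, against 6.75% and 2.98% of all, and CANNTG (E-box) was in windows of all 6 members and in 66.2% of all.

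**Figure D1:**
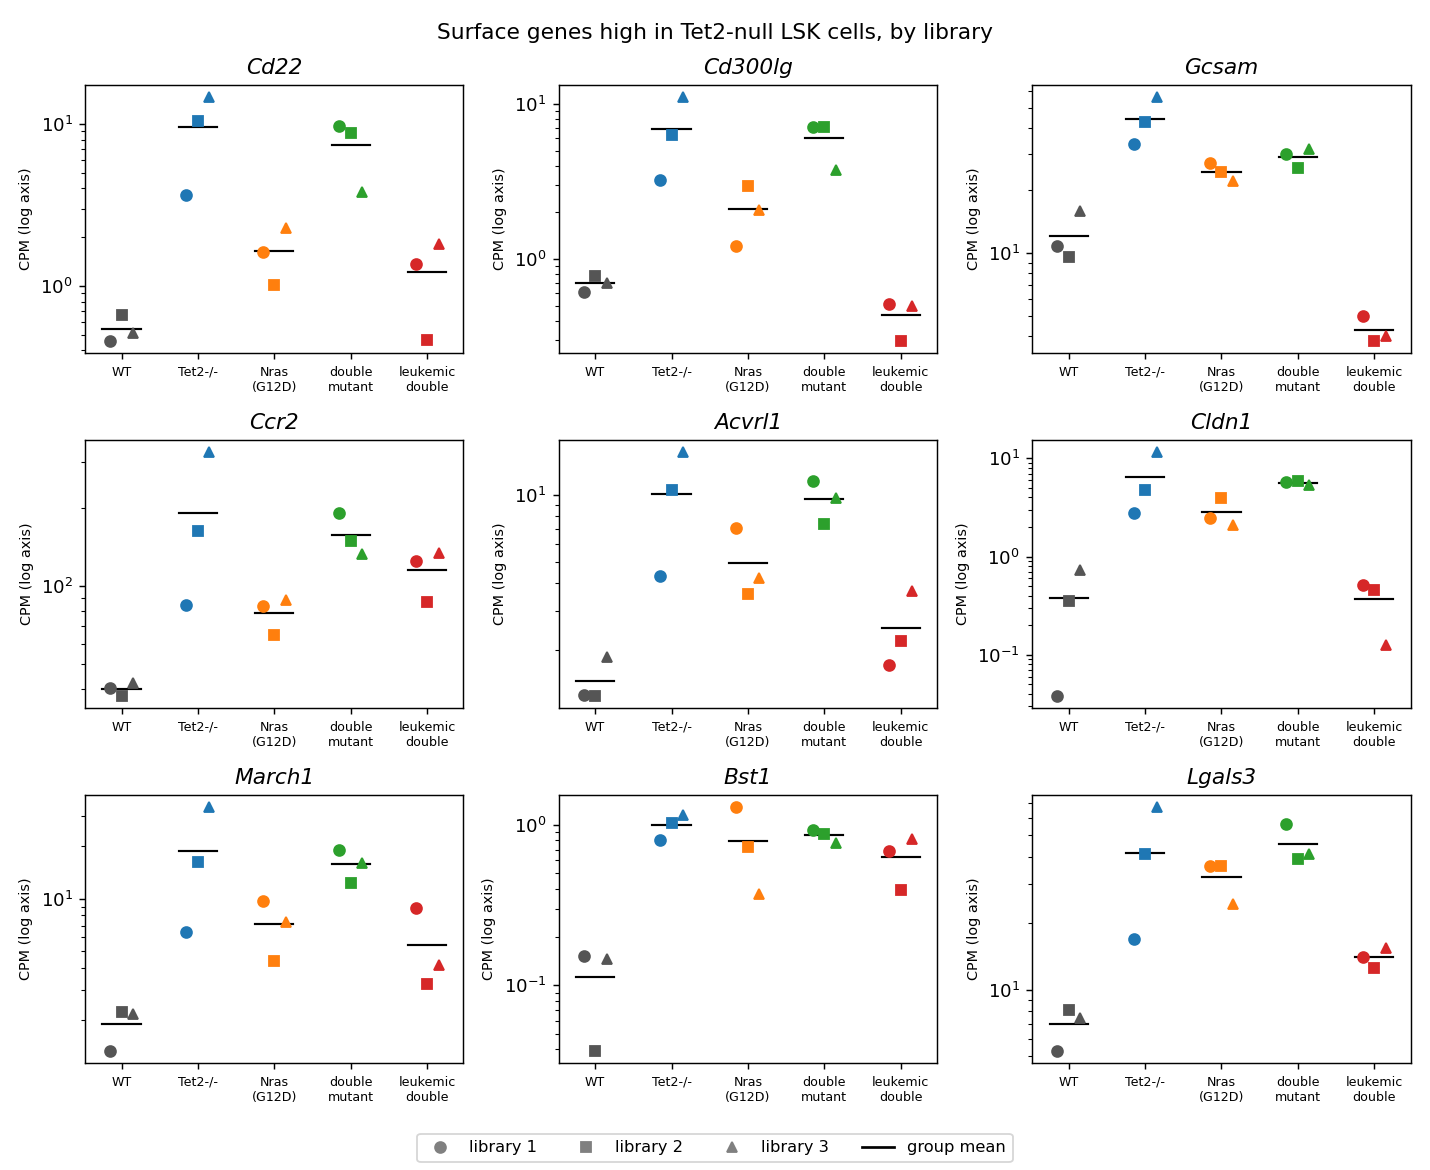
CPM (log axis) of each of the 9 genes in every library of the 5 groups; circles, squares and triangles are libraries 1, 2 and 3 and the bar is the group mean. The 3 Tet2-/- and the 3 double-mutant libraries lie above the 3 WT libraries for every gene, which is how the genes were chosen, and the leukemic group returns to or below the WT level for Cd300lg, Gcsam and Cldn1.

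Log2 changes come from a limma fit over all 15 libraries and are given ± their standard error. The 2 members tied to B cell receptors come first. Cd22 was at 0.457, 0.665 and 0.513 CPM for WT, 3.65, 10.4 and 14.6 for Tet2-/-, 1.62, 1.01 and 2.29 for Nras(G12D), 9.65, 8.80 and 3.79 for non-leukemic doubles and 1.37, 0.461 and 1.81 for leukemic doubles. Its Tet2-/- and double-mutant values overlapped each other and lay above all WT and Nras(G12D) values, whereas leukemic library 2 lay within the WT range. The Tet2-/- minus WT difference was 3.88 ± 0.60, the second largest of the 9 after that of Cldn1. Gcsam, whose product acts in B cell receptor signalling and motility of germinal centre B cells, was at 10.9, 9.55 and 15.9 CPM for WT, 33.6, 42.7 and 56.1 for Tet2-/-, 27.1, 24.6 and 22.2 for Nras(G12D), 30.0, 25.7 and 31.5 for non-leukemic doubles and 5.01, 3.79 and 3.99 for leukemic doubles. It is the member for which all 3 Tet2-/- libraries lay above all 3 double-mutant libraries, and the one whose leukemic level was farthest below WT (-1.48 ± 0.26).

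Cd300lg codes for a CD300 family receptor known from the endothelium of lymphoid tissue. It was at 0.610, 0.782 and 0.696 CPM for WT, 3.23, 6.28 and 11.04 for Tet2-/-, 1.22, 2.97 and 2.08 for Nras(G12D), 7.09, 7.09 and 3.76 for non-leukemic doubles and 0.515, 0.296 and 0.499 for leukemic doubles. All Tet2-/- and double-mutant libraries lay above each Nras(G12D) library, and the leukemic libraries lay below all WT libraries. The Tet2-/- minus WT difference was 3.10 ± 0.48 and the leukemic minus double-mutant difference -3.71 ± 0.48.

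Both signalling receptors were highest in Tet2-/- library 3. Ccr2 was at 40.5, 37.7 and 42.2 CPM for WT, 84.5, 163 and 329 for Tet2-/-, 83.4, 64.9 and 88.3 for Nras(G12D), 191, 150 and 133 for non-leukemic doubles and 125, 86.8 and 134 for leukemic doubles. The WT values were close together (40.1 ± 2.30 CPM, SD, n = 3), while those of Tet2-/- covered a wide range (192 ± 125, SD, n = 3), with library 1 inside the Nras(G12D) range. The Tet2-/- minus WT difference was 2.04 ± 0.37. Acvrl1 was at 1.26, 1.25 and 1.87 CPM for WT, 4.33, 10.4 and 15.5 for Tet2-/-, 7.05, 3.56 and 4.24 for Nras(G12D), 11.6, 7.39 and 9.65 for non-leukemic doubles and 1.72, 2.21 and 3.68 for leukemic doubles. Its double-mutant libraries lay above all Nras(G12D) libraries, and Tet2-/- library 1 lay inside the Nras(G12D) range. Its Tet2-/- minus WT difference was 2.62 ± 0.46.

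Cldn1, which codes for a tight junction protein, had the largest differences and the fewest WT counts after Bst1. It was at 0.0381, 0.352 and 0.732 CPM for WT (1, 9 and 20 counts), 2.76, 4.80 and 11.6 for Tet2-/-, 2.47, 3.95 and 2.11 for Nras(G12D), 5.78, 5.82 and 5.37 for non-leukemic doubles and 0.515, 0.461 and 0.125 for leukemic doubles (15, 14 and 4 counts). The WT libraries thus differed from one another by more than the double-mutant libraries did, and the leukemic values lay within the WT range. From pooled counts, the ratio to WT was 17.6 in Tet2-/- (exact 95% interval 12.2 to 26.3), 14.9 in the double mutant (10.3 to 22.4) and 0.9502 in the leukemic double mutant (0.562 to 1.61). These intervals cover counting error only, for reads without molecular identifiers. The fitted Tet2-/- minus WT difference, 4.42 ± 0.81, was 3.35 without WT library 1.

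The 2 enzymes differed in level. March1 was at 1.33, 2.23 and 2.16 CPM for WT, 6.41, 16.2 and 33.6 for Tet2-/-, 9.74, 4.37 and 7.34 for Nras(G12D), 19.0, 12.3 and 15.9 for non-leukemic doubles and 8.82, 3.23 and 4.18 for leukemic doubles. Its 3 leukemic libraries stayed above all WT libraries and overlapped Nras(G12D). The Tet2-/- minus WT difference was 3.02 ± 0.54. Bst1 was at 0.152, 0.0391 and 0.146 CPM for WT (4, 1 and 4 counts), 0.807, 1.03 and 1.15 for Tet2-/-, 1.29, 0.723 and 0.372 for Nras(G12D), 0.934, 0.874 and 0.772 for non-leukemic doubles and 0.686, 0.395 and 0.811 for leukemic doubles. All 12 mutant libraries lay above all WT libraries, and the 4 mutant groups overlapped one another. Bst1 passed the filter through 2 Tet2-/- libraries and 1 Nras(G12D) library alone, so it had to be higher there. Its pooled ratio to WT was 8.89 in Tet2-/- (4.48 to 20.1, from 89 counts against 9).

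Lgals3, which codes for galectin-3, a lectin that binds beta-galactosides and is abundant in macrophages, was at 5.30, 8.14 and 7.47 CPM for WT, 16.9, 41.0 and 67.1 for Tet2-/-, 36.2, 36.3 and 24.5 for Nras(G12D), 56.2, 39.0 and 41.3 for non-leukemic doubles and 14.1, 12.5 and 15.4 for leukemic doubles. Among the members it had the Nras(G12D) level nearest to that of Tet2-/- on the log2 scale: the Tet2-/- minus Nras(G12D) difference was 0.18 ± 0.39, and it was -0.27 without Tet2-/- library 3. Per kilobase of merged exon, mean levels in Tet2-/- were 28.4 CPM for Ccr2, 22.4 for Lgals3 and 12.9 for Gcsam. The other 6 were lower on that scale, from 0.300 (Bst1) to 2.63 (March1).

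**Figure D2:**
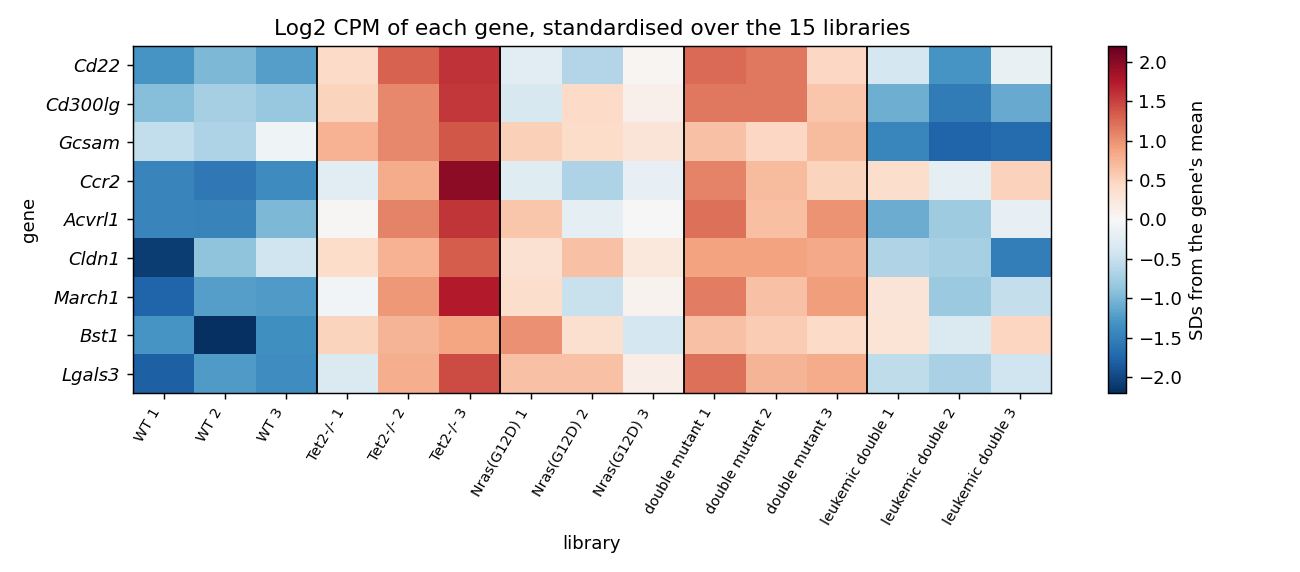
Log2 CPM of each gene (rows) in each of the 15 libraries (columns), standardised to the gene's mean and SD over all libraries. Tet2-/- library 3 is the darkest red column, Tet2-/- library 1 is pale, and the WT and leukemic columns are mostly blue.

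Against WT, all 9 genes were higher in Tet2-/- and in the double mutant, from 1.87 ± 0.26 (Gcsam) to 4.42 ± 0.81 (Cldn1) in the first and from 1.29 ± 0.26 (Gcsam) to 4.49 ± 0.81 (Cldn1) in the second. All 3 mutant libraries lay above all 3 WT libraries for all 9, against 21.9% of genes in Tet2-/- and 16.6% in the double mutant. Since these contrasts chose the genes, nothing is read from the counts. Over all genes the median differences were -0.005 and 0.004. Leaving out Tet2-/- library 3 lowered the Tet2-/- minus WT difference of Ccr2 to 1.55 and of Lgals3 to 1.94, and leaving out library 1 raised them to 2.53 and 2.93. When the Y-linked mean was added to the fit, the differences ran from 1.91 (Gcsam) to 4.52 (Cldn1). In bulk libraries a change in the share of cells that express a gene and a change in RNA per cell cannot be told apart.

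The double mutant and Tet2-/- were then compared. High values in both groups chose the genes, which favours a small difference between the 2, so the count that follows is a description. None of the 9 genes passed the test, and 28.7% of all genes did (3999, of which 2806 were higher in the double mutant). At an unadjusted p of 0.05, 5977 genes passed. The differences of 8 of the 9 were between -0.26 and 0.32 with standard errors of 0.37 to 0.81: Lgals3 was at 0.32 ± 0.39, Acvrl1 and Cldn1 at 0.08, March1 at 0.03, Ccr2 and Cd300lg at -0.08, Bst1 at -0.20 and Cd22 at -0.26. Their limma adjusted p-values were 0.554 to 0.973. A p that misses the threshold does not show equal levels, and the sign of 7 of the 8 (all but Bst1) turned under another setting or without 1 library. Without Tet2-/- library 1 the difference of Ccr2 was -0.57, and without library 3 it was 0.41.

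Gcsam was the exception in size. It was 44.1 ± 11.3 CPM in Tet2-/- and 29.1 ± 3.002 in the double mutant (SD, n = 3 each), a difference of -0.58 ± 0.26 (limma adjusted p = 0.107), and it was lower in all 3 double-mutant libraries than in any Tet2-/- library, as 27.5% of genes were. Under quantile normalization the difference was -0.96 (limma adjusted p = 0.0161), under median centring the limma adjusted p was 0.0107, and with library weights it was 0.04. These 2 scalings also moved the median of all genes, by -0.24 and -0.465, and turned the split of all calls from 70.2% higher to 45.9% and 33.3% higher. Over all 13927 genes, 5073 passed under quantile normalization, 6059 under median centring and 9018 with library weights. Over all alternatives the adjusted p of Gcsam ran from 0.0107 to 0.356, the last without Tet2-/- library 3. High values in both groups chose the gene, so these p-values are descriptions.

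Nras(G12D) against WT addresses what the oncogene alone does to these genes. All 9 were higher in all 3 Nras(G12D) libraries than in all 3 WT libraries, against 5.52% of all genes. The estimates were 3.45 ± 0.81 for Cldn1, 2.61 ± 0.56 for Bst1, 2.21 ± 0.39 for Lgals3, 1.86 ± 0.54 for March1, 1.71 ± 0.46 for Acvrl1, 1.49 ± 0.60 for Cd22, 1.47 ± 0.48 for Cd300lg, 1.05 ± 0.26 for Gcsam and 0.96 ± 0.37 for Ccr2. Their median was 1.71, beside -0.02 over all genes. No gene of the 13927 passed the limma test in this comparison (0%), with 577 at an unadjusted p of 0.05. The smallest adjusted p among the 9 was that of Lgals3, 0.206 (0.0537 to 1 over the alternatives), and those of the others ran from 0.515 to 0.984. The comparison shares its WT libraries with the contrasts that chose the genes, and low WT values favour a positive difference in both, so it is not independent of that choice. Cd22, Cd300lg, Cldn1 and Bst1 reached 1 CPM in no WT library and passed the filter through mutant libraries alone. For them the filter also favours a positive difference, so nothing is read from the count of 9.

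**Figure D3:**
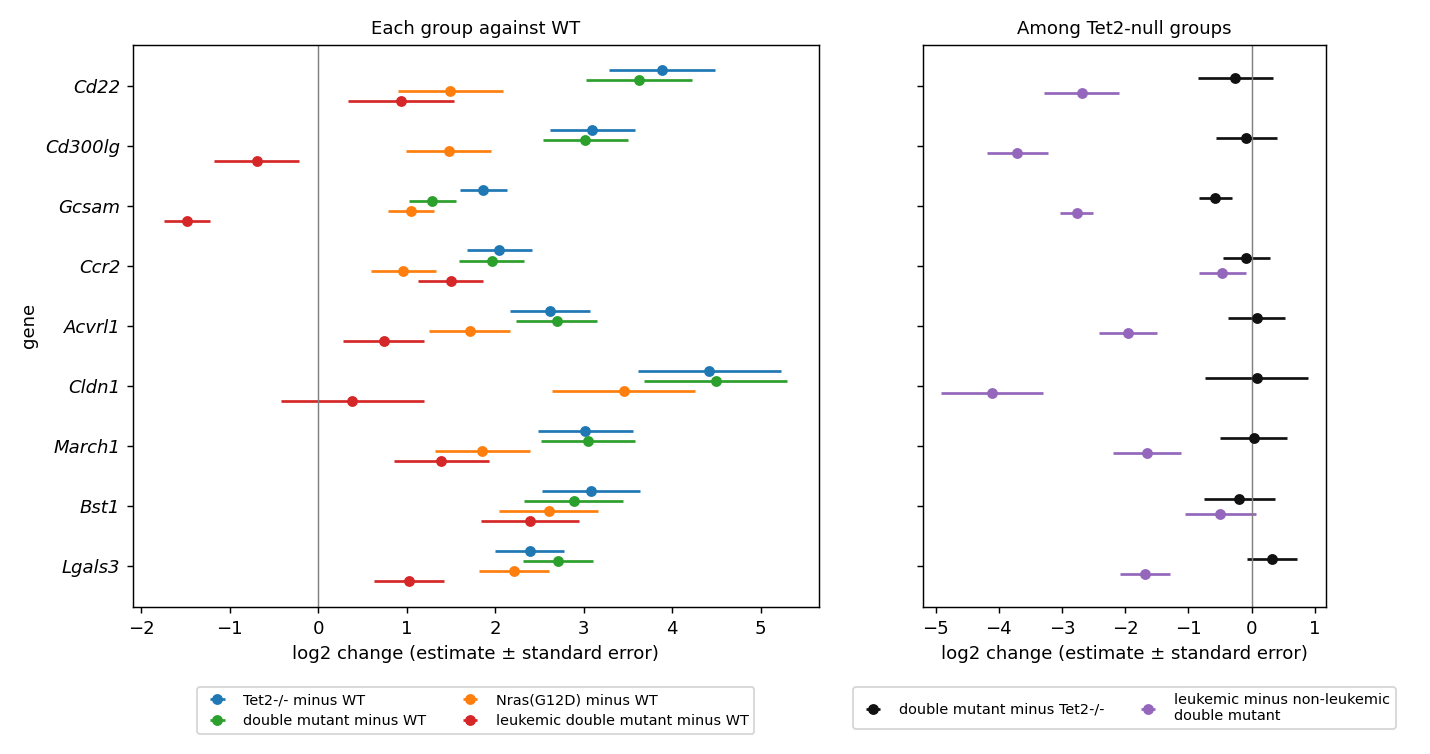
Estimated log2 change ± standard error of each gene (rows) against WT in the 4 mutant groups (left), and of 2 contrasts among groups that lack Tet2 (right): the double mutant minus Tet2-/-, and leukemic minus non-leukemic. Points for Nras(G12D) sit between 0.96 and 3.45, right of 0 for all 9 genes, and those of the double mutant minus Tet2-/- lie between -0.58 and 0.32.

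The interaction asks whether the double mutant departs from the sum of the single-mutant log2 changes. It was negative for all 9 genes, from -3.38 ± 1.14 (Cldn1) and -2.80 ± 0.79 (Bst1) to -1.05 ± 0.52 (Ccr2), with a median of -1.75 beside 0.09 over all genes. No gene passed the limma test (0%), with 2924 at an unadjusted p of 0.05, and the adjusted p-values of the 9 were 0.143 (Bst1, Gcsam, Lgals3) to 0.261 (Ccr2). The WT libraries enter this contrast with a positive sign and the Tet2-/- libraries with a negative one. The genes were chosen for high values in Tet2-/-, which favours a negative sign. Low WT values, where they made the chosen groups stand out, favour that sign too. The double-mutant libraries enter with a positive sign and were also chosen for high values, which acts the other way. Cd22, Cd300lg, Cldn1 and Bst1 also passed the filter with no WT library at 1 CPM. How these balance was not tested, so the signs and adjusted p-values of the 9 are descriptions. Gcsam (-1.63 ± 0.37) passed without Tet2-/- library 2 (limma adjusted p = 0.0207) or without double-mutant library 1 (limma adjusted p = 0.0457), and did not pass without WT library 2 (limma adjusted p = 0.352). Of the 13927 genes, 1692, 505 and 0 passed in these fits, in that order. With library weights Bst1, Gcsam, Lgals3 and March1 passed, with limma adjusted p-values of 0.00507 to 0.0442. With those weights 6639 of the 13927 genes passed, so nothing is read from these calls. The weight estimate did not converge and gave leukemic library 3 a weight of 134.7.

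Set beside Nras(G12D), the double mutant was highest relative to it for Cd22 (2.13 ± 0.60) and Cd300lg (1.54 ± 0.48) and close to it for Bst1 (0.28 ± 0.56) and Gcsam (0.24 ± 0.26). All 3 double-mutant libraries lay above all 3 Nras(G12D) libraries for 7 of the 9 genes (6.74% of all genes), all but Bst1 and Gcsam. For Tet2-/- this held for 3 of 9 (14.3% of all genes), Cd22, Cd300lg and Gcsam. High values in Tet2-/- and the double mutant chose the genes, so nothing is read from these counts. The Nras(G12D) mean lay between that of WT and those of Tet2-/- and the double mutant for all 9 genes, with overlap between Nras(G12D) and both of these groups for Bst1 alone.

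The leukemic double mutant was below the non-leukemic one for 7 of the 9 genes with no overlap between libraries (23.4% of all genes). Over all genes, 24.3% passed the limma test in this comparison, and no test is given for the 9. The differences were -4.11 ± 0.81 for Cldn1, -3.71 ± 0.48 for Cd300lg, -2.77 ± 0.26 for Gcsam, -2.69 ± 0.60 for Cd22, -1.95 ± 0.46 for Acvrl1, -1.69 ± 0.39 for Lgals3 and -1.65 ± 0.54 for March1. Ccr2 (-0.46 ± 0.37) and Bst1 (-0.49 ± 0.56) were the 2 that overlapped. Over leaving out each library the difference of Cldn1 ran from -4.45 to -3.49 and that of Cd300lg from -4.01 to -3.46. That of Cd22 ran from -3.12 to -2.11, of Gcsam from -2.89 to -2.69, of Acvrl1 from -2.26 to -1.71, of March1 from -2.07 to -1.35 and of Lgals3 from -1.79 to -1.52. For Ccr2 it ran from -0.58 to -0.27 and for Bst1 from -0.70 to -0.20, and the difference of all 9 genes stayed negative without any 1 library. Under quantile normalization that of Bst1 turned to 0.34. On the deposited log2 scale the 3 Tet2-/- libraries lay above the leukemic ones for 7 genes (25.9% of all genes), all but March1 and Ccr2. Bst1 did so narrowly and overlapped in CPM, with its lowest Tet2-/- library at 0.807 and its highest leukemic library at 0.811. Both contrasts start from a group whose high values chose the genes, which favours a lower leukemic level, so they are descriptions and nothing is read from the counts.

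Against WT the leukemic libraries split the set. All 3 lay above all WT libraries for Ccr2 (1.496 ± 0.37), Bst1 (2.39 ± 0.56), March1 (1.39 ± 0.54) and Lgals3 (1.02 ± 0.39), that is 4 of 9 beside 24% of all genes. All 3 lay below all WT libraries for Gcsam (-1.48 ± 0.26) and Cd300lg (-0.69 ± 0.48), 2 of 9 beside 23.1%. Acvrl1 (0.74 ± 0.46), Cd22 (0.94 ± 0.60) and Cldn1 (0.39 ± 0.81) overlapped WT, and Cldn1 was at -0.68 without WT library 1; leaving out any other library, leukemic ones included, turned no sign. Over all genes, 24.7% passed the limma test in this comparison, which shares its WT libraries with the contrasts that chose the genes, and no test is given for the 9. Without 1 library the difference ran from 0.55 to 1.51 for Cd22 and from 0.44 to 0.98 for Acvrl1, the lower value without leukemic library 3 in both. It ran from 0.97 to 1.696 for March1, from 1.38 to 1.69 for Ccr2, from 1.89 to 2.69 for Bst1 and from 0.84 to 1.15 for Lgals3. For the genes below WT it ran from -1.63 to -1.26 (Gcsam) and from -0.83 to -0.44 (Cd300lg). Leukemic library 2 was the lowest of its group for 7 genes, and it held the fewest LSK markers (686 CPM) and the most erythroid markers (6553 CPM). Their part in these differences was not tested.

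**Figure D4:**
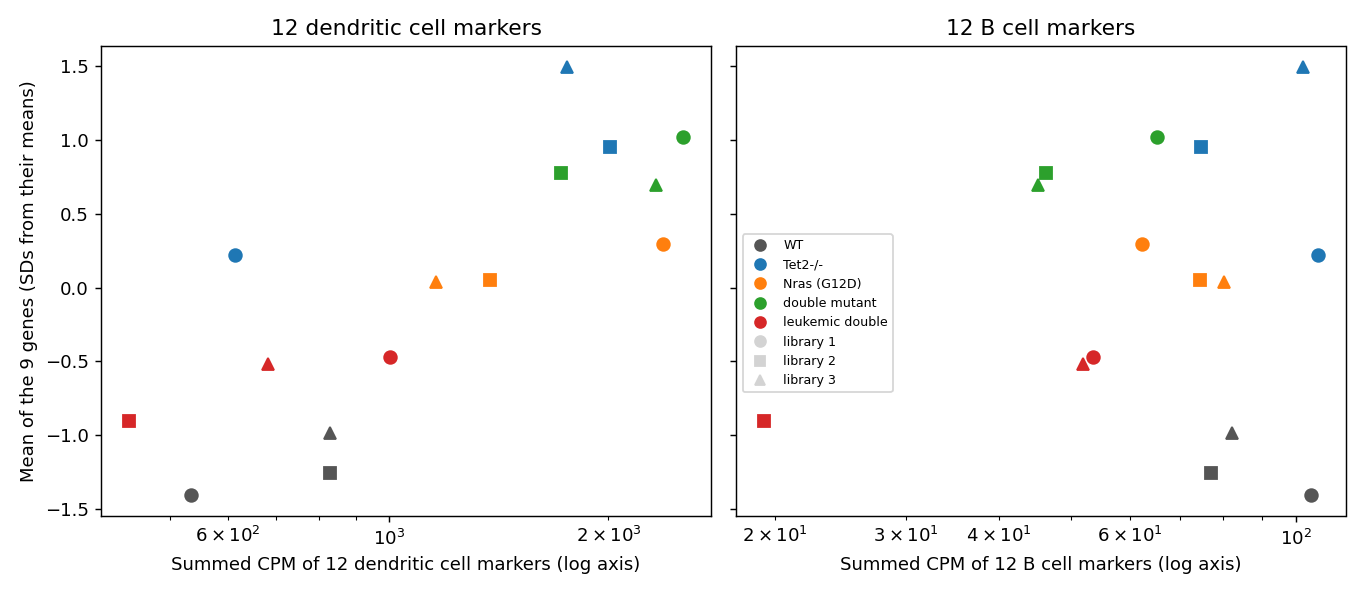
Mean standardised level of the 9 genes in each library (vertical axis, SDs) against the summed CPM of 12 dendritic cell markers (left) and 12 B cell markers (right), both on log axes. The profile correlates with the dendritic sum at r = 0.80 and with the B cell sum at r = 0.11 over 15 libraries, with Tet2-/- library 1 at the low end of its group on the dendritic axis. The libraries share the group differences that chose the genes.

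The 9 genes moved together across libraries. The mean of their standardised log2 values was -1.40, -1.26 and -0.987 for WT, 0.219, 0.954 and 1.49 for Tet2-/-, 0.294, 0.0483 and 0.0380 for Nras(G12D), 1.02, 0.776 and 0.696 for non-leukemic doubles and -0.471, -0.904 and -0.516 for leukemic doubles. Tet2-/- library 1 was the lowest and library 3 the highest of the group for all 9 genes. The closest pair over the 15 libraries was Acvrl1 and Lgals3 (r = 0.940), and the most distant Ccr2 and Gcsam (r = 0.371). Without the leukemic libraries the median correlation of a gene with the rest was 0.820 (Bst1) to 0.922 (Acvrl1). These correlations describe libraries that share the group differences that chose the genes.

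The genes whose pattern over the 15 libraries was closest to that mean profile were Ptpro (r = 0.954), Amica1 (0.951), Gpr35 (0.944), Itgax (0.944), Mpeg1 (0.942), H2-Aa (0.942), Pirb (0.938) and Cxcr3 (0.920). Itgax codes for CD11c, H2-Aa for an MHC class II chain and Mpeg1 for a pore-forming protein of phagocytes. Itgax was at 5.02 ± 0.872 CPM for WT, 26.8 ± 13.8 for Tet2-/-, 14.998 ± 2.21 for Nras(G12D), 25.9 ± 8.72 for non-leukemic doubles and 9.63 ± 4.81 for leukemic doubles (SD, n = 3 each). H2-Aa followed the same order, with 76.1 ± 22.6, 591 ± 349, 293 ± 224, 530 ± 137 and 87.4 ± 19.8 CPM (SD, n = 3 each).

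Markers of other cells that an LSK gate could hold were read beside these values. Summed dendritic markers were at 535 to 830 CPM for WT, 615 to 2009 for Tet2-/-, 1159 to 2379 for Nras(G12D), 1720 to 2531 for non-leukemic doubles and 439 to 1002 for leukemic doubles, and correlated with the mean profile over the 15 libraries (r = 0.80). The lowest Tet2-/- value, 615, was library 1, which also had the lowest level of all 9 genes in its group. The highest, 2009, was library 2, whereas library 3 (1754) had the highest level of all 9 genes. Nras(G12D) library 1 had a dendritic sum of 2379 with a mean profile of 0.294. The monocyte and macrophage sum was 782 to 842 CPM in WT, 870 to 1881 in Tet2-/- and 874 to 985 in non-leukemic doubles. It was 758 to 1654 in Nras(G12D) and 697 to 1199 in leukemic doubles. The T and NK cell sum was 214 to 266 CPM in WT, 375 to 456 in Tet2-/- and 257 to 335 in non-leukemic doubles. It was 373 to 398 in Nras(G12D) and 81.7 to 275 in leukemic doubles. Unlike the dendritic sum, both separated Tet2-/- from WT. The B cell sum was 76.9 to 105 CPM in WT and 74.6 to 107 in Tet2-/- (r = 0.11). Other correlations with the profile were 0.49 for monocyte and macrophage, 0.61 for T and NK cell, 0.24 for neutrophil, 0.52 for endothelial and stromal, 0.32 for LSK, -0.33 for erythroid and 0.08 for mast cell and basophil markers. Over the 12 libraries without the leukemic group the correlation was 0.77 for dendritic, -0.32 for B cell, 0.48 for monocyte and macrophage, 0.69 for T and NK cell, 0.22 for neutrophil, 0.48 for endothelial and stromal, 0.000158 for LSK, 0.04 for erythroid and 0.18 for mast cell and basophil markers. In the double mutant against WT, 5 of the 12 dendritic markers passed the test, all higher (Itgax, Cd209a, H2-Aa, Ciita and Batf3), beside 0.682% of all genes. In Tet2-/- against WT H2-Aa did, beside 0.23% of all genes. H2-Ab1, the dendritic marker with the highest mean over all libraries, was at 161 ± 61.7 CPM for WT, 382 ± 353 for Tet2-/-, 526 ± 461 for Nras(G12D), 1000.2 ± 259 for non-leukemic doubles and 180 ± 29.6 for leukemic doubles (SD, n = 3 each). The part of dendritic, B cell or any other marked cells in the levels of the 9 genes was not tested. The correlations of marker sums with the profile describe libraries that share the group differences that chose the genes. Flt3 is in both the dendritic and the LSK list. No list had a marker at 0 in a whole group other than the mast cell gene Mcpt4 in the double mutant. The endothelial and stromal sum was 243 to 298 CPM in WT and 455 to 633 in Tet2-/-, without overlap. It was 173 to 412 in Nras(G12D), 259 to 373 in non-leukemic doubles and 57.2 to 326 in leukemic doubles. Within that list, endothelial Cdh5 was at 0.02 to 0.14 CPM in the 5 groups.

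Other genes of each member's family were read in the same fit. Between the double mutant and Tet2-/-, 28.7% of all genes passed: of the 13927, 2806 rose and 1193 fell. Of 22 other genes of the BMP and TGF-beta pathway 5 rose, near the share of all genes that rose, and none fell. Tgfb1 (3.07 ± 0.67), Smad6 (2.77 ± 0.63) and Id1 (2.27 ± 0.58) had the smallest adjusted p. The counts of each list are descriptions, with no set test. The median over the 22 was 0.86, beside 0.004 over all genes. Under median centring 3 rose and 2 fell. Of 12 other MARCH ligases and targets 5 rose and none fell, led by March2 (2.66 ± 0.51), March5 (2.63 ± 0.57) and March3 (2.45 ± 0.58), while March1 itself was at 0.03, and the median of the 12 was 0.99. The MARCH calls were 6 and 1 under quantile normalization and 5 and 2 under median centring. Over all genes 2327 rose and 2746 fell under quantile normalization, and 2020 rose and 4039 fell under median centring. Of 16 other tight junction genes 3 rose and Ocln fell, and the calls were 3 and 4 under median centring, 3 and 5 under quantile normalization, and 3 and 0 with scaling by total counts. The median of these 16 was -0.45.

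In the galectin, chemokine receptor, Siglec, CD300 and NAD and nucleotide gene lists the calls were downward, and in B cell receptor signalling they were mixed. Of all 13927 genes, 1193 fell between Tet2-/- and the double mutant. Of 6 galectin genes 3 fell, Lgals3bp by 0.95, Lgalsl by 1.08 and Lgals8 by 0.76 on the log2 scale, with a median of -0.78 over the 6. Of 16 chemokine receptors Ccr7 fell (-1.68 ± 0.54), of 5 Siglecs Cd33 (-1.83 ± 0.53) and of 5 CD300 genes Cd300lb (-0.96 ± 0.34). Of 10 NAD and nucleotide genes Entpd1 (-1.26 ± 0.36) and Art4 (-1.13 ± 0.38) fell. Under quantile normalization and under median centring 3 chemokine receptors, 2 Siglecs and 4 NAD and nucleotide genes fell. Of all 13927 genes, 2746 and 4039 fell under these scalings, so nothing is read about a family from these counts. Of 16 B cell receptor signalling genes 3 rose (Grb2, Fyn and Rhoa) and 3 fell (Ptpn6, Inpp5d and Btk), and 2 rose and 6 fell under median centring. With scaling by total counts no CD300 gene passed. The medians of these lists were -0.29 (chemokine receptors), -0.05 (Siglecs), -0.09 (CD300), -0.71 (NAD and nucleotide genes) and -0.48 (B cell receptor signalling), beside 0.004 over all genes. Cd86, a target of MARCH1, did not pass and was at 26.7 ± 12.9 CPM in Tet2-/- and 16.7 ± 1.83 in the double mutant (SD, n = 3 each). Ligands of CCR2 were too low to test, with Ccl2 at 0.0898 ± 0.0611 CPM in WT and 0.290 ± 0.0492 in Tet2-/- (SD, n = 3 each). Of the genes in these family lists other than the 9, H2-Aa alone passed in Tet2-/- against WT (2.81 ± 0.53, limma adjusted p = 0.0486), where 0.23% of all genes did. With scaling by total counts H2-Aa no longer passed.

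The genes around the 9 loci were measured as well. Of 70 genes within 100 kb of a member, 25 passed the filter, and none passed the test in Tet2-/- or the double mutant against WT, where 0.23% and 0.682% of all genes did. Their median differences were 0.06 and -0.004, with 15 and 12 of 25 above 0. Cd38, the neighbour of Bst1 with a related product, lies 24.6 kb after it and was at 0.46 ± 0.52 in Tet2-/- against WT. Mpp2, 1.40 kb after Cd300lg, was at -0.10 ± 0.52, Tma16, 1.48 kb after March1, at 0.22 ± 0.22, and Dlgap5, 1.62 kb after Lgals3, at 0.05 ± 0.32. Acvr1b, which codes for another type I receptor and lies 28.7 kb after Acvrl1, was at 0.24 ± 0.49 and BC016579, 3.98 kb after Gcsam, at 0.99 ± 0.48.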

How the data were processed

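LSK RNA was sequenced with a stranded TruSeq mRNA kit, per the labels' protocols. The submitters' processing notes name limma 3.28.21, edgeR 3.14.0, the aligner STAR (2.4.0f1) and bcl2fastq, besides the builds mm10 and NCBIM37, whose roles they leave out. No counter or annotation is given in the sources used here. The deposited values are log2 CPM with 0.5 added to each count, made by the authors. Whole counts were recovered from them for 100% of values (tolerance 1e-06), against scaled library sizes.

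Genes at 1 CPM or more in at least 3 libraries (13927 of 44827) entered limma 3.58.1 (R 4.3.3) with an intensity trend, a mean per group over 15 libraries and two-sided tests with Benjamini-Hochberg adjustment; a call is an adjusted p below 0.05. The fit was tested on simulated data. For the 9 members, double mutant against Tet2-/-, Nras(G12D) against WT and their interaction were tested, and all other contrasts are descriptions. Double mutant against Tet2-/- and the interaction use the groups whose high values chose the genes. The members' p-values there are therefore descriptions too. Calls of other genes are also given for other contrasts of the same fit. The members, lists (families, cell markers) and naming rule were chosen with earlier results of these data known. The rule names all 9 members, up to 3 called genes or the closest partner of each family, the 8 genes nearest to the mean profile, and tested neighbours. Same-numbered Tet2-/- and double-mutant libraries deviated together (r = 0.137, 0.106 and 0.122 over genes; the labels give only the number), no other pair of groups so. With a replicate block this comparison called 3859 genes and 0 members. Alternatives were scaling, filters, added count, library weights, spread, a Y-linked covariate and leaving out each library. Values of a few genes that the rule would name are not reported here.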

Additional observations from a re-analysis of the deposited data

How the results depend on the processing

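Genes called are given here as numbers passing an adjusted p of 0.05 in limma. For Tet2-/- against WT the 32 calls became 53 with no filter, 144 with quantile normalization, 89 with median centring, 57 with only the compared groups and 5 to 2235 without 1 library (without WT library 1 and without Tet2-/- library 2). With a replicate block they became 713, although the numbers do not pair these groups (r = 0.242, 0.237 and -0.124), and the block changed the call of no member in the 3 tested comparisons. For the double mutant against WT the 95 became 213 with quantile normalization, 574 with only the compared groups, 396 with the Y-linked covariate and 6 to 992 without 1 library (WT library 1, double-mutant library 1). For the double mutant against Tet2-/- the 3999 became 6059 with median centring and 1258 to 5243 without 1 library (Tet2-/- libraries 1 and 2), and 1 member, Gcsam, passed under quantile normalization, median centring and both kinds of weights; 0 passed without any 1 library. Leukemic against non-leukemic double mutant gave 741 in place of 3382 with only the compared groups and 1185 to 5295 without 1 library (leukemic libraries 2 and 1), and leukemic against WT 1356 to 5251 in place of 3443 (WT library 1, leukemic library 1). Nras(G12D) against WT gave 1 call with only the compared groups and with library weights, 0 to 5 without 1 library (5 without Nras(G12D) library 3), and 0 members throughout. The interaction gave 0 to 1692 without 1 library (1692 without Tet2-/- library 2), with 0 to 1 member.

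Library quality weights raised the calls to 9018 (double mutant against Tet2-/-), 6639 (interaction, 4 members), 7264 (Tet2-/- against WT), 3807 (double mutant against WT), 10442 (leukemic against WT) and 9695 (leukemic against non-leukemic). That estimate did not converge and gave leukemic library 3 a weight of 134.7. Gene-by-gene weights, chosen after seeing the data, gave 8793, 5961 (3 members), 7058, 3613, 8334 and 7767. The cause of these shifts was not tested. The members' signs were kept in 170 of 170 values for Tet2-/-, the double mutant and Nras(G12D) against WT, in 224 of 224 for the interaction and in 143 of 170 for the double mutant against Tet2-/-. Quantile normalization turned leukemic minus WT of Cd300lg to 0.18. Bst1 and Cldn1 rest on 9 and 30 WT counts, so depth limits both; 3 counts correspond to 0.0775 to 0.127 CPM.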
